A study of Caenorhabditis elegans with 2 samples.

Results

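The core histone, linker histone and H3.3 genes of Caenorhabditis elegans were examined for binding of the transcription factor PAG-3 in late embryos. Histone genes were the protein-coding genes of the WBcel235 annotation whose name is his- followed by a number, which gave 72 of 19973 protein-coding genes. They comprised 17 H2A, 16 H2B, 20 H3 and 16 H4 genes, 1 linker histone gene (his-24), and 2 genes for fragments (his-39, H2B-like, and his-73, H3-like). They lay in 19 loci when genes within 5 kb of each other were joined. Of the 72 genes, 65 lay in such groups of core histone genes, 5 stood alone (his-24, his-71, his-72, his-73 and his-74), and 2 H3.3 genes, his-69 and his-70, lay next to each other.

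Chromatin immunoprecipitation and sequencing (ChIP-seq) had been performed on 2 biological replicates of whole hermaphrodite embryos at the late embryonic stage, which formed 1 group. The worms were of strain OP154, genotype unc-119(ed3) III; wgIs154, in which an integrated transgene expresses PAG-3 with a C-terminal GFP-FLAG tag, and the precipitation used an antibody against GFP. Embryos were synchronised by egg bleaching and taken 4 hours later. The tagged protein came from a transgene, and chromatin came from all cells of the animal, so that binding in few cells and weak binding in many cannot be told apart. With 1 group no comparison of conditions was possible.

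Core histones form the protein spool around which DNA is wound, and a linker histone binds where the DNA enters and leaves it. Replication-type genes are transcribed when cells copy their DNA, usually as divergent pairs in tandem clusters, and their messages end in a stem-loop rather than a poly(A) tail. The H3.3 variants are incorporated outside DNA replication, and their genes stand apart from the clusters. PAG-3 is a zinc-finger protein related to mammalian GFI1 and is known for its role in the fate of neurons.

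The divergent promoters were the places where histone genes with and without a PAG-3 region could be set side by side. In 31 pairs, genes on opposite strands shared 1 stretch between their start codons, of 227 to 368 bases (the annotation gives no untranslated region for 64 of the 72 genes). The following 4 stretches show the kinds that were found. They are read from the WBcel235 genome (ce11), plus strand, with 3 words in capitals on either strand (TATAAA, the TATA box; the word GGACAC; and the word CCGAAT). The stretch of his-60 (H4) and his-59 (H3) on chromosome IV:7487993-7488248 has no other copy in the genome, and a pooled region had its summit 17 bp inside his-60.
his-60/his-59: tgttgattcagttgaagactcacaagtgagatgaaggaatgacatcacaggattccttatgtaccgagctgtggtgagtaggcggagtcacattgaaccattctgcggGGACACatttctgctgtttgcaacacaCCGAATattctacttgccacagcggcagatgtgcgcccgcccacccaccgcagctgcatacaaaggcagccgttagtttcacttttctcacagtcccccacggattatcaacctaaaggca
The stretch of his-2 (H3) and his-1 (H4) on chromosome V:16042284-16042519 is also unique, and no pooled summit lay within 200 bp of it.
his-2/his-1: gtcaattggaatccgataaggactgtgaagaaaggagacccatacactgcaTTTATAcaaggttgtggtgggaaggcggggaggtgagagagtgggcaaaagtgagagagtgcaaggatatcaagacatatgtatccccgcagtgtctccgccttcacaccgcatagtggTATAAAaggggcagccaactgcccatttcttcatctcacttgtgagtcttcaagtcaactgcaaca
The stretch of his-14 (H4) and his-13 (H3) on chromosome II:13819938-13820209 occurs in 3 identical copies, none with a pooled summit.
his-14/his-13: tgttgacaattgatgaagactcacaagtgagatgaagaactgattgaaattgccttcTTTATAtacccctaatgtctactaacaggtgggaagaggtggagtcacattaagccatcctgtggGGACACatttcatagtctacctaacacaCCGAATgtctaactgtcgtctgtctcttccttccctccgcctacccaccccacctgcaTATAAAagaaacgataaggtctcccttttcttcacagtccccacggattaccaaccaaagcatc
The stretch of his-50 (H4) and his-49 (H3) on chromosome V:8847705-8847942 occurs in 2 identical copies, and the nearest pooled summit was 34994 bp from his-49.
his-50/his-49: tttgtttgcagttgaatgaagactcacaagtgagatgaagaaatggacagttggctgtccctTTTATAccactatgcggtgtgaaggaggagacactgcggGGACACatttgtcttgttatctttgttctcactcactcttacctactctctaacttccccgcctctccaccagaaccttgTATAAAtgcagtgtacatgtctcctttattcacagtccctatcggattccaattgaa

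The short word GGACAC was shared by most of these promoters. On either strand, it lay in 27 of the 31 divergent stretches and in 59 of 72 histone promoters (250 bp upstream to 50 bp downstream of the start), or 81.9% against 6.25% of all 19973 promoters. CCGAAT was in 24 stretches and in 68.1% of histone promoters, against 10.7% of all promoters. TATAAA was in 24 stretches and in 65.3% of histone promoters, against 38.0% of all. GGACAC and CCGAAT were picked after the stretches had been read, so their shares are descriptions of how alike the copies are.

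Of the other words searched, CCAAT was in 54.2% of histone promoters and 45.7% of all promoters, and AGAGAG was in 40.3% against 17.5%. AATCAC, which holds the AATC core bound by mammalian GFI1, was in 4 of 72 histone promoters, or 5.56% against 17.03% of all. GCGCGC was in 1.39% against 3.58%. Within 50 bp of the summits of the regions at histone genes, AATCAC and TATAAA were in 0 of 23, against 4.30% and 8.32% of all pooled regions. GGACAC was in 5 of 23, or 21.7% against 3.08% of all pooled regions, and CCGAAT in 2 (8.70% against 4.87%). Both words were picked from the histone stretches, so their shares at histone regions are not an independent comparison. CCAAT was in 3 (13.0% against 20.2%), AGAGAG in 1 (4.35% against 8.37%) and GCGCGC in 1 (4.35% against 2.16%). A missing word says only that these letters are not in the window.

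Most histone genes carried no PAG-3 region at all. A region was assigned to a gene when its summit lay between 1000 bp upstream and 200 bp downstream of a transcript start, or in the gene body. The authors' pooled list of 21336 regions holds peaks together with background, so a region on it is a candidate and not in itself a peak. By this rule 21 of the 72 histone genes (29.2%) had a pooled region, against 50.9% of all protein-coding genes. In the promoter window alone the counts were 19 of 72 (26.4%) against 30.9%. A region in each replicate list, anywhere in the window, was found at 17 genes (23.6%) against 39.1%. The regions of the replicates did not have to overlap each other, and at his-41 and his-42 they did not. In any of the 3 lists, 45 genes had none. The histone windows were also shorter, with a median of 1384 bp against 3026 bp for all genes.

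The authors' stricter list holds peaks that met their limit for reproducibility, the irreproducible discovery rate (IDR). Of the 327 IDR peaks, 1 lay at a histone locus and was shared by 2 genes, his-67 and his-68, or 2.78% of the 72 genes against 1.59% of all genes. Where a region was present, its strength was not far from that of other genes. The strongest region of a gene had a median signal value of 38.5 (quartiles 35.9 and 49.3) over 21 histone genes. Over the 10163 genes with a region the median was 35.3 (quartiles 29.2 and 45.0). Signal values are the authors' enrichment scores for a region, and no value in the pooled list was below 24.2.

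The presence of a region moved with how far the sequence of a gene could be told from its copies. Many histone genes are near-identical. With the longest isoform of each gene taken, the 72 genes encode 17 distinct proteins. Of these, 1 H4 protein is encoded by 16 genes, 1 H2A protein by 15 and 1 H3 protein by 15. Uniqueness was measured as the share of 36-base words along the gene window that occur once in the 6 nuclear chromosomes. Its median was 22.6% over the 72 histone genes and 99.9% over all genes. It was 85.7% at the 21 histone genes with a region, the lowest of them 28.0% at his-15, and 5.11% at the 51 without.

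Split by uniqueness, the histone share was below that of all genes in the lowest range and above it in the higher ranges. Below 50% unique words, 2 of 43 histone genes had a region (4.65%), against 7.1% of 549 genes in all. Between 50 and 90% the count was 12 of 19 (63.2%) against 45.9% of 2621 genes. At 90% or more it was 7 of 10 (70%) against 53.1% of 16803 genes. Neighbouring genes share regions, so these counts are not of independent genes. The limits of 50 and 90% were chosen after the data had been seen. Whether reads that match several copies were kept is not given in the sources used here, and its part in the missing regions was not tested.

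**Figure D1:**
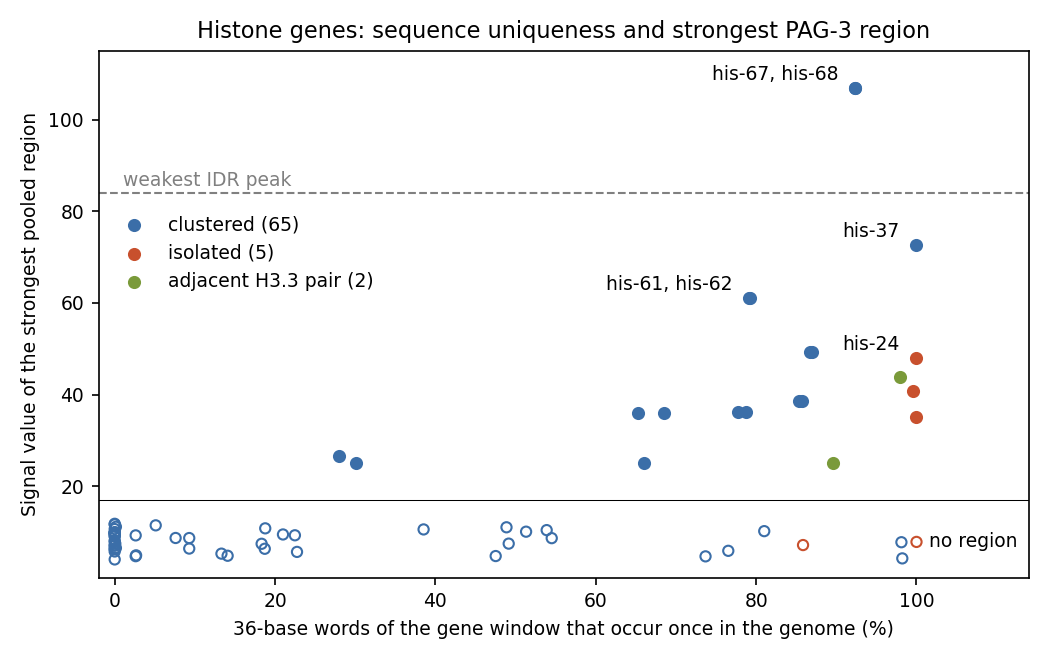
Each of the 72 histone genes by the share of its window's 36-base words that occur once in the genome (x axis, %) and the signal value of its strongest pooled region (y axis). Open circles in the lower band are the 51 genes without a region, spread vertically for legibility, and 41 of the 43 genes below 50% are among them. The dashed line is the weakest IDR peak (84.0), passed by his-67 and his-68.

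**Figure D2:**
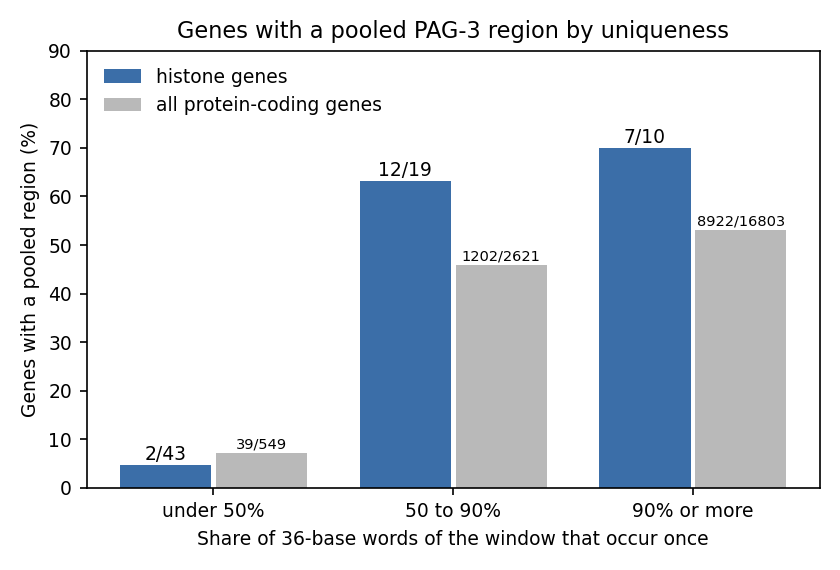
Share of genes with a pooled region (y axis, %) in 3 ranges of window uniqueness (x axis) for histone genes and all protein-coding genes, with the counts above the bars. In both sets the share is lowest under 50%, with 2 of 43 histone genes and 39 of 549 genes.

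Clustered and lone genes are set here beside the 50.9% of all genes that had a pooled region. Of the 65 clustered genes 16 had a region (24.6%), with a median uniqueness of 18.7% over all 65. Of the 5 lone genes 3 had one, near the share of all genes, with a median uniqueness of 99.9%, and both genes of the adjacent H3.3 pair had one. The median signal value of the strongest region was 38.5 at the clustered genes and 40.7 at the lone genes. That order turned with a window of 500 bp upstream (49.3 and 42.6), in the promoter window alone (38.5 and 35.04) and without replicate 1 (22.6 and 21.3). In loci of 4 or more genes, 11 of 58 genes had a region (18.97%, median uniqueness 11.3%). In loci of 1 to 3 genes it was 10 of 14 (71.4%, median uniqueness 98.0%). Clustered genes were mostly the repeated ones, and the part of each in the counts was not tested.

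The divergent stretches were also divided by whether they had copies. In 17 of 31 pairs the stretch had an exact copy elsewhere, and 0 of the 17 had a pooled summit in it or within 200 bp. The 8 stretches that were unique along their whole length had one in 5 cases. The 6 that had no exact copy but held some repeated words had none, although 3 of them were 79.4 to 85.6% unique. The 5 were his-67/his-68, his-61/his-62, his-60/his-59, his-4/his-3 and his-38/his-40. The 3 unique stretches without a summit were his-31/his-32, his-35/his-41 and his-2/his-1.

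By histone type, regions were spread over every core histone. H3 genes, with the H3.3 variants counted, had a region in 9 of 20 cases, H4 in 5 of 16, H2A in 3 of 17 and H2B in 3 of 16, beside 50.9% of all genes. The H3 share of 45% was near that of all genes. The median uniqueness of the windows was 60.2% for H3, 35.7% for H4, 2.67% for H2A and 13.8% for H2B.

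The strongest region at a histone gene lay in the divergent promoter of his-67 (H4) and his-68 (H2A). It spanned chromosome I from 9988734 to 9989183 and was the IDR peak, with a pooled signal value of 107 at rank 147 and a -log10 q of 2.61. The signal value was 53.0 in replicate 1 (rank 153) and 53.7 in replicate 2 (rank 197), or 53.4 ± 0.531 (SD, n = 2). The replicates were close to each other. The summit was 173 bp upstream of the start of his-68, in intergenic sequence. The start of alg-5, an Argonaute gene, was 843 bp away, so its window held the same peak. This peak had the highest -log10 q of the 23 regions at histone genes, where a lower value means weaker evidence. The next were 1.56 at his-37 and 1.09 at his-61 and his-62. The rest lay between 0.857 and 0.0227, with 0.549 for the strongest region of his-24 and 0.393 for that of his-69.

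A second, weaker pooled region lay just inside his-68, with a signal value of 54.2 at rank 1790 and its summit 48 bp past the start. Each replicate list held a region of its own there, of 23.5 in replicate 1 (rank 4403) and 23.4 in replicate 2 (rank 4501). The windows of the pair were 92.3% unique at his-67 and 92.4% at his-68.

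The next strongest gene was his-37, an H4 gene in a group of 3 with his-35 (H2A) and his-41 (H2B), where annotated untranslated regions mark all 3 genes. Its region on chromosome V from 9546919 to 9547368 had a pooled signal value of 72.6 at rank 564, below the weakest IDR peak of 84.0. The signal value was 25.5 in replicate 1 (rank 3276) and 42.7 in replicate 2 (rank 449), or 34.1 ± 12.2 (SD, n = 2), so that replicate 2 was the higher. The summit lay 39 bp past the start, and the sequence within 50 bases of it (chromosome V:9547094-9547194, plus strand, ce11) shows the site with none of the 3 words in capitals.
his-37: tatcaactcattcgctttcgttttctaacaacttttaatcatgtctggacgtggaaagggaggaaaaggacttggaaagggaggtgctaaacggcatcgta
A second region of his-37, with a pooled signal value of 40.8, was 809 bp upstream and closer to the start of C50F4.6 (204 bp). Its signal value was 32.6 in replicate 1 and 14.6 in replicate 2, the opposite order. The same summit lay 32 bp from his-41, outside its window. Neither his-35 nor his-41 had a pooled region, with windows 98.1% and 98.2% unique. Replicate 2 listed a region of 14.6 in the windows of both, and replicate 1 one of 13.6 at his-41.

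The 4 genes his-61, his-62, his-60 and his-59 on chromosome IV were the only locus of 4 or more genes in which every gene had a pooled region. The region between his-61 (H2A) and his-62 (H2B), from 7486185 to 7486634, had a pooled signal value of 61.01 at rank 1145. The signal value was 28.6 in replicate 1 and 33.2 in replicate 2 (30.9 ± 3.29, SD, n = 2). The summit was 135 bp upstream of a start, inside the unique stretch. The sequence within 50 bases of it (chromosome IV:7486360-7486460, plus strand, ce11) is shown with the same 3 words in capitals.
his-61/his-62: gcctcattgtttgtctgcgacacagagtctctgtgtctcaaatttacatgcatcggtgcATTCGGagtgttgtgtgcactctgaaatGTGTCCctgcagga
At his-60 and his-59, whose stretch is printed above, there were pooled regions with signal values of 49.3 (rank 2558) and 47.0 (rank 3019). Both overlapped 1 region in each replicate, with 21.7 in replicate 1 and 35.3 in replicate 2 (28.5 ± 9.60, SD, n = 2). Their summits were 227 and 17 bp inside his-60. The locus with 1 kb on each side held 6.22 pooled summits per 10 kb, against 2.13 for the genome.

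**Figure D3:**
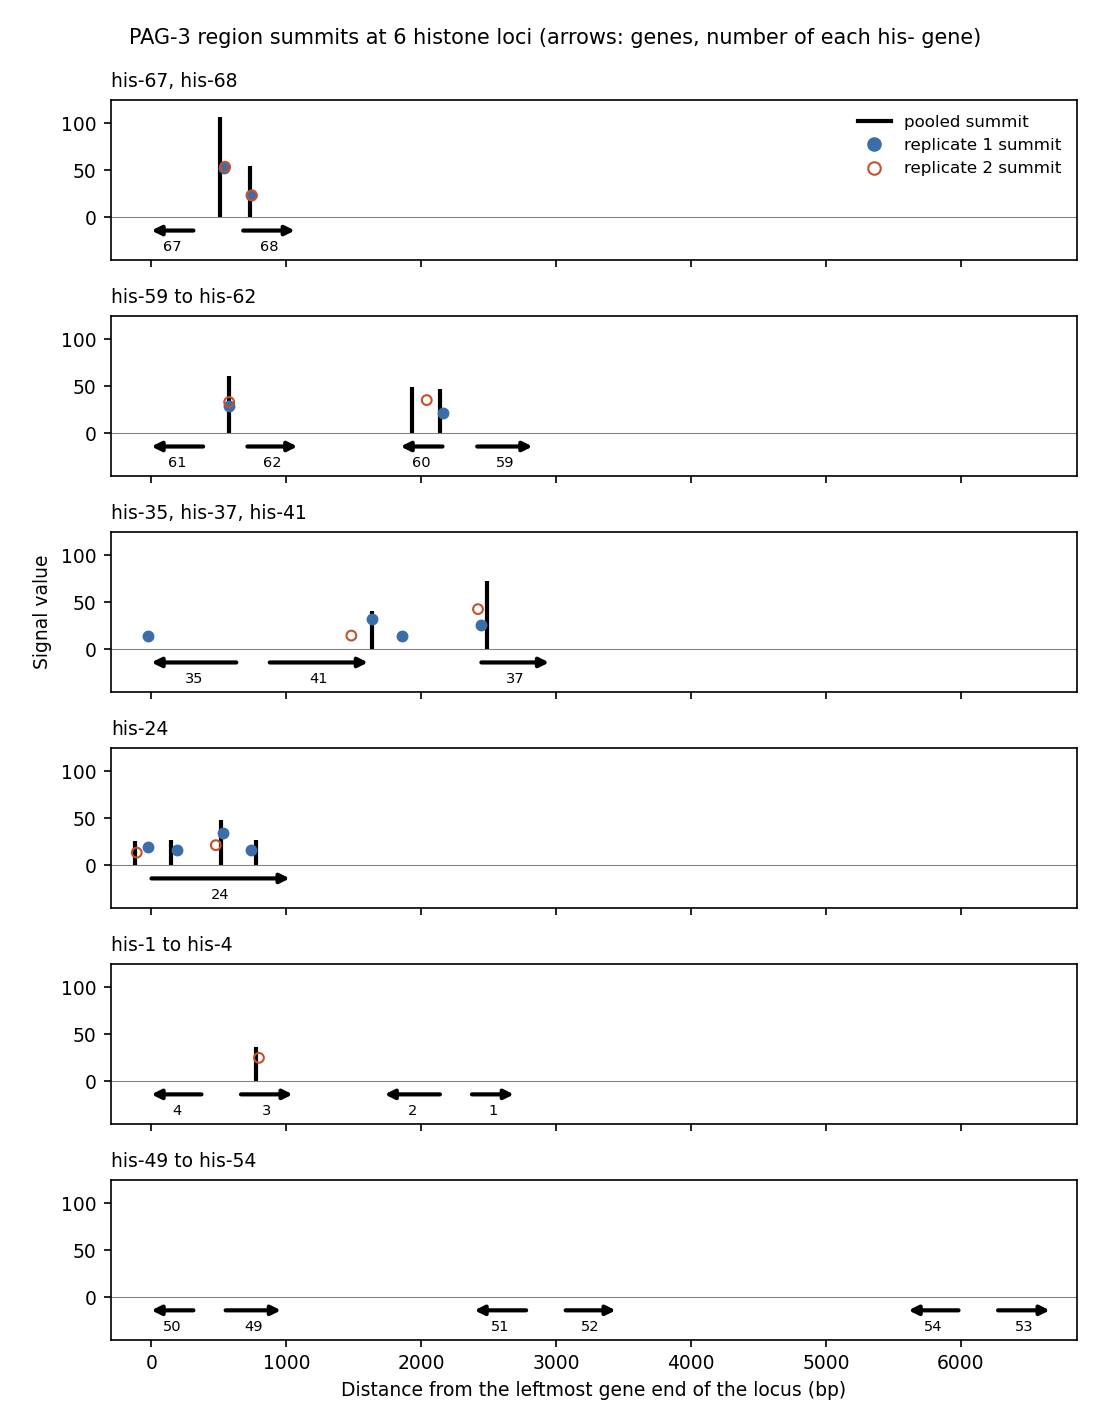
Summits of the regions assigned to the histone genes of 6 loci, as distance from the leftmost gene end (x axis, bp) and signal value (y axis). Black lines are pooled summits, filled blue circles replicate 1 and open red circles replicate 2, and arrows give gene position and direction. The his-67 and his-68 locus reaches 107, and the 6 genes his-49 to his-54 have no summit in any list.

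Regions nearer the middle of the list lay in 3 other groups, all above the pooled list's median of 32.0. The strongest gene of the his-29 to his-34 cluster was his-31, which shared 1 region with his-32, with a pooled signal value of 38.5 (rank 6081), 23.5 in replicate 1 and 17.6 in replicate 2. The pair his-38 and his-40 shared a region of 36.2 (rank 7408), with 18.1 and 16.99 in replicates 1 and 2. The pair his-3 and his-4 shared one of 35.9 (rank 7637), listed at 24.8 in replicate 2 and not listed in replicate 1. The summits of these 3 regions were all inside a coding gene, 304, 44 and 109 bp past the start of his-32, his-40 and his-3.

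In the largest clusters few genes had a region. The locus of 13 genes on chromosome II, 10.9 kb long, had a region at 2 genes, at the low end of the list. With 1 kb on each side it held 2.32 pooled summits per 10 kb, against 2.13 for the genome. The locus of 8 genes described below held 0.905. Another pooled summit of the chromosome II locus, of 27.6 (rank 15690), lay 400 bp from his-9 and in no histone window. The H2B gene his-15 had 26.5 at rank 17376, with 15.7 in replicate 1 and 20.4 in replicate 2, 817 bp upstream of the start. That summit lay beyond his-16, 206 bp from its end, and was also in the window of ZK131.11. The overlapping replicate 1 region had its summit outside the window of his-15. The H3 gene his-42 had 25.01 at rank 19859, and the overlapping region was listed in replicate 2 only, at 14.4. Replicate 1 had a separate region of 23.2 (rank 4616) in the window of his-42. In the locus of 8 genes on chromosome V that runs from his-28 to his-18, only his-17 (H3) had one. It was 25.2 (rank 19611), listed at 17.3 in replicate 1 only, 970 bp upstream and 94 bp from the start of frpr-13, a receptor gene.

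In 5 loci of 4 to 6 genes no histone gene had a pooled region. Across the 6 genes his-49 to his-54, a stretch of 6.66 kb, 0% of the 36-base words occurred once with 1 kb on each side counted, and no summit was in any list. The other 4 were the loci of his-45 to his-48, his-55 to his-58, his-63 to his-66, and his-5 to his-8 with his-39, with median uniqueness of 13.8%, 19.7%, 33.8% and 53.9%. In the last of these, regions were listed in 1 replicate only: 17.8 in replicate 1 at his-5 and his-6, and 13.5 in replicate 2 at his-39. The first was close to the median of the replicate 1 list (17.6), and the second was near the lowest value of the replicate 2 list (13.3).

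The linker histone gene his-24, an H1 gene on chromosome X from 14490094 to 14491119, had the most pooled regions of any histone gene, 4. Their pooled signal values were 47.9 (rank 2815), 26.9, 26.7 and 25.3. The strongest had 34.3 in replicate 1 (rank 942) and 21.3 in replicate 2 (rank 6308), or 27.8 ± 9.19 (SD, n = 2). Its summit was 513 bp into the gene, within 100 bp of the annotated non-coding RNA M163.16. The sequence within 50 bases of it (chromosome X:14490557-14490657, plus strand, ce11) has a GC content of 62.4% and holds none of the 3 words.
his-24: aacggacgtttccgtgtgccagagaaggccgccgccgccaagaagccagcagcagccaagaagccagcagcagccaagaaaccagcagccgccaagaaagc
The next 2 regions overlapped the same replicate regions as the strongest. Replicate 1 also listed weaker regions, of 16.7 and 16.2, with summits close to theirs. The weakest region had other partners, of 19.6 in replicate 1 and 13.4 in replicate 2. It overlapped the region of 26.7, so the 4 are not independent. The locus with 1 kb on each side held 16.5 pooled summits per 10 kb, the highest of the 19 loci.

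The H3.3 genes differed among themselves. The genes his-71 and his-72 encode H3.3 proteins of 136 residues that differ from each other at 1 position and from the replication-type H3 of his-2 at 8 and 9 positions (1 isoform of his-72 compared). That of his-74 differs from his-2 at 16 of 136. Those of his-69 (127 residues) and his-70 (134) differ at 31 and 32 positions. All proteins were compared position by position from the first residue, without alignment, and a difference in length was counted as differing positions. All but his-74 had a pooled region, and none was an IDR peak.

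Among the H3.3 genes his-69 had the highest pooled signal value, 43.7 (rank 3902), with 15.5 in replicate 1 and 27.8 in replicate 2 (21.6 ± 8.67, SD, n = 2). Its summit was inside the gene, 283 bp past the start, and 484 bp from the start of rcq-5, a helicase gene. The gene his-72 had 3 regions. The strongest, of 40.7 (rank 5027), had 22.5 in replicate 1 and 28.5 in replicate 2, and lay 516 bp upstream of a start of his-72 and 890 bp from that of rpt-6, a proteasome gene. The second, of 37.2 (rank 6788), was 26 bp upstream of a start. It overlapped regions of 32.0 in replicate 1 and 18.2 in replicate 2. The summit in replicate 2 was close to that start, but the summit in replicate 1 lay at the third region. The third, of 27.7 (rank 15643), overlapped the same replicate regions and lay within 100 bp of the snoRNA gene Y49E10.36.

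The gene his-71, whose protein is the closest to that of his-72, had 1 region of 35.04 (rank 8202), 690 bp upstream, with 19.3 in replicate 1 and 14.9 in replicate 2 (17.1 ± 3.15, SD, n = 2). For his-70 it was 25.2 (rank 19606), listed at 18.4 in replicate 1 only. For his-74 there was no pooled region although all of its words were unique. A region of 21.6 (rank 6019) was listed for it in replicate 1 only, and the nearest pooled summit was 3873 bp away. The fragment gene his-73 had none in any list.

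Most of the 23 regions had a partner in both replicates. An overlapping region was in both replicate lists for 19 of 23 (82.6%), against 50.7% of the 21336 pooled regions, and in 1 replicate for the other 4. Some of the 19 were matched to the same replicate regions, so they are not separate cases. This held at his-24, at his-72, at his-59 with his-60, and at his-67 with his-68. With summits required within 100 bp the shares were 10 of 23 (43.5%) against 29.1%. The regions at histone genes ranked higher than the list as a whole, with a median signal value of 37.2 against 32.0, and the part of that strength in the replicate overlap was not tested. Replicate 1 was the higher at some regions and replicate 2 at others, so the order of the replicates was not the same across the loci.

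**Figure D4:**
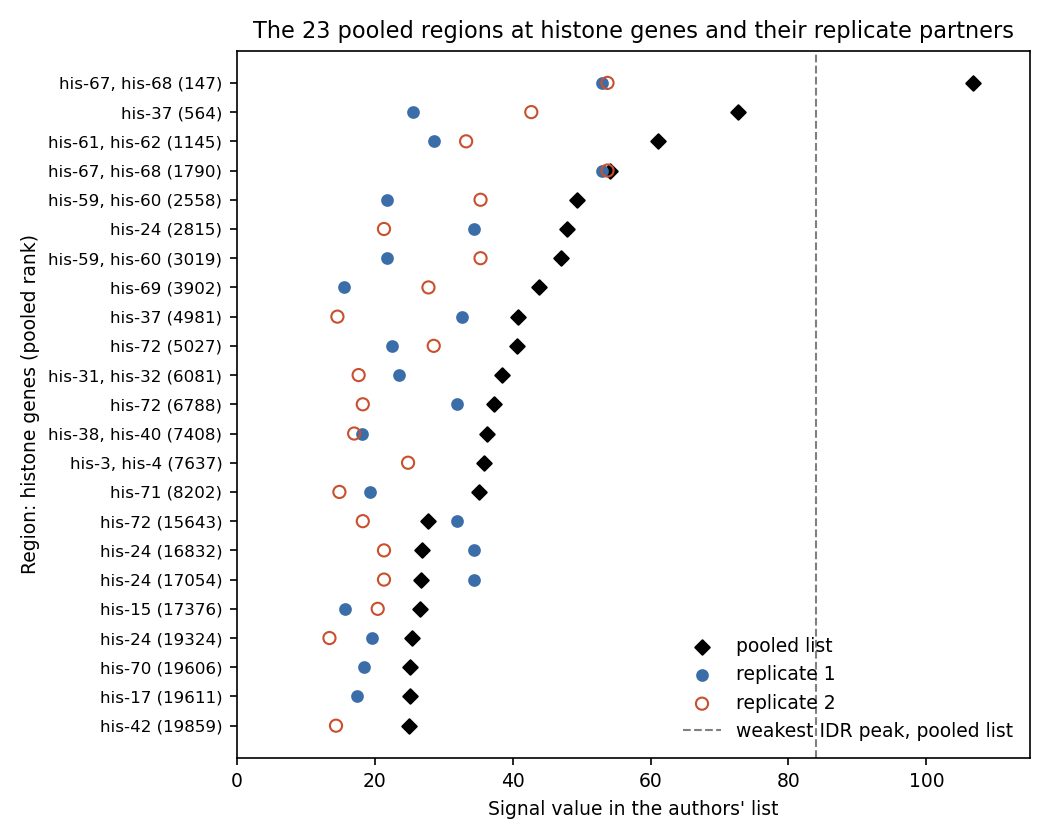
Signal values (x axis) of the 23 pooled regions at histone genes, named by gene with the pooled rank in brackets (y axis), in the pooled list and in replicates 1 and 2. Each circle is the strongest overlapping region of that replicate, and a missing circle means none overlapped, as for his-3 and his-4 in replicate 1. The top region, at his-67 and his-68, has 107 in the pooled list and 53.0 and 53.7 in the replicates.

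The rule for assigning regions fixed that summits lay near or in a histone gene, and the positions are given as a description. The summit lay inside a histone gene in 13 of 23 regions and within 200 bp of a histone start in 10, and 8 regions were shared by neighbouring histone genes. In 15 of the 23 no other protein-coding gene had the region in its window. The sequence within 50 bases of the summit had a median GC content of 49.5%, against 42.6% for all pooled regions. The median uniqueness of the regions was 98.1%, with a lowest value of 56.4%, against a median of 100% for all pooled regions. At least 90% of the words were unique in 16 of the 23, against 19719 of 21336 pooled regions.

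Genes for other histones, outside the his- names, also carried candidates without an IDR peak. Of 10 such genes 7 had a pooled region (70% against 50.9% of all genes). The strongest were hil-7, a linker histone gene, with a pooled signal value of 49.7, and hcp-3, the centromeric H3, with 49.4. htz-1, which encodes H2A.Z, had 38.2. cpar-1 and hil-1 had none in any list. hil-2 had none in the pooled list, with 18.0 in replicate 1 and 19.5 in replicate 2.

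Of 15 genes that supply or place histones 11 had a pooled region (73.3% against 50.9% of all genes) and 1 had an IDR peak (1.59% of all genes). chaf-2, a subunit of the CAF-1 chaperone that deposits H3 and H4 at replication, had a pooled signal value of 161 at rank 30, with 63.2 in replicate 1 and 101.4 in replicate 2. cdl-1, the stem-loop binding protein of histone messages, had 65.1 (rank 867), with 35.4 in replicate 1 and 22.6 in replicate 2. The H3.3 deposition genes hira-1 and xnp-1 had none in the pooled list, nor did chaf-1 and asfl-1. A region of 16.9 was listed for xnp-1 in replicate 2.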

How the data were processed

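PAG-3 ChIP-seq regions of 2 biological replicates, in build ce11, were taken from the authors' lists of candidates (23022 regions in replicate 1, 22971 in replicate 2 and 21336 pooled) and of 327 IDR peaks, which were the 327 strongest pooled regions. The deposited signal values and -log10 q values were made by the authors against a control, per the deposited library notes, and were used as deposited. Those notes name tracks of uniquely mapped reads. How the lists treated such reads, the aligner, caller, IDR threshold and read depth are not given in the sources used here.

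Genes came from Ensembl release 115 of WBcel235, with RefSeq symbols matched by gene ID for all 72, since Ensembl gives 22 of them the name of a copy. Lists were matched to each other by overlap (1 bp or more), keeping the strongest region. Windows were 1000 bp upstream to 200 bp downstream of each start, plus the gene body. Word and region assignment were tested on simulated data. Named genes were those with an IDR peak or a region within rank 2000, the lone, H3.3 and H1 genes, and the strongest of each cluster, with others as examples. The members and lists were chosen with earlier results of these data known. With 1 group of 2 replicates no test between samples was possible. Windows, the overlap rule, cluster distance, word length (50) and each replicate alone were tried as alternatives. Lists in ce10 were used only for the number of IDR peaks. Python 3.11.15, numpy 2.4.6, pandas 2.3.3, biopython 1.88 and matplotlib 3.10.9 were used.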

Additional observations from a re-analysis of the deposited data

How the results depend on the processing

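The number of histone genes with a pooled region was 16 with a window of 500 bp upstream and 30 with 2000 bp, against 21, and the IDR peak stayed at 2 genes under every alternative run (for 1 replicate alone, its 327 strongest regions stood in for the IDR peaks). Clustered genes with a region ranged from 13 to 24 and lone genes from 2 to 4. The median signal value of the strongest region was 45.8 with 500 bp, 37.3 with 2000 bp and 36.2 in the promoter window alone. At clustered genes it was 49.3 with 500 bp and 36.2 with 2000 bp, and at lone genes 42.6 with 500 bp and 35.04 in the promoter window alone. These medians are over different sets of genes, by construction. In the list of 1 replicate alone the medians were 21.7 to 23.1 over all histone genes, 22.6 to 23.2 at clustered and 21.3 to 26.8 at lone genes. Single-replicate lists have a lower scale (median 17.6 in each, 32.0 pooled). Regions in both replicates numbered 10 with summits within 100 bp, and 13 with an overlap of at least 50% of the pooled region, against 19. Words of 50 bases gave a median uniqueness of 24.2%. No paired analysis was possible because the series has 1 group. Read depth is unknown, so no counting error could be given.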
